A study of Mus musculus with 2 samples.

Results

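Mir139 is a mouse miRNA gene that lies within an intron of Pde2a. It is 1 of the 2202 miRNA genes counted in small-RNA libraries from mouse heart, and it was taken as the single entry whose Ensembl identifier, ENSMUSG00000065446.1, carries that symbol in GENCODE M21. The libraries came from whole hearts of 2 male B6CASTF1/J mice at 25 days of age, the first-generation cross of C57BL/6J with a CAST strain, with RNA shorter than 30 nucleotides selected and no treatment named. The description of each sample reads PND25 months, which mixes days and months, and the age was taken as 25 days. Both libraries form 1 group, so there is no contrast of conditions. The labels number the hearts as separate biological replicates yet give them the same donor identifier, so the spread between them may be partly or wholly technical. Mir139 was chosen by its high count in these same libraries, and its level and rank are therefore given as a description without a test.

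MicroRNAs are cut from hairpin-shaped transcripts by Drosha and Dicer, and 1 or both arms of the hairpin are loaded onto Argonaute proteins, where the bases near the 5′ end, the seed, pair with target mRNAs. Pde2a encodes phosphodiesterase 2A, an enzyme that breaks down cAMP and cGMP and is stimulated by cGMP, which in heart muscle links the 2 second messengers. Mir139 is transcribed in the same direction as Pde2a and is commonly described as a product of the host transcript. Its 5p arm is best known as a miRNA that is low in many tumours.

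The hairpin and its mature arms are shown because every count below belongs to this one sequence, which carries no second genomic copy among the miRNA genes. The sequences are those of RefSeq for GRCm38.p6, the reference of C57BL/6J. In the hairpin, which lies at chr7:101475376-101475443 on the plus strand of mm10, the capitals mark the mature arms, and in the arms they mark the seed, bases 2 to 8.
Mir139 hairpin: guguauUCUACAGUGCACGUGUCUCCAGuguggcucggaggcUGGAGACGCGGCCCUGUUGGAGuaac
miR-139-5p: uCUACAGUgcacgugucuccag
miR-139-3p: uGGAGACGcggcccuguuggag

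The hairpin is 68 nucleotides long with a GC content of 58.8%. The 5p arm occupies bases 7 to 28 and the 3p arm bases 43 to 64, and 14 bases separate them. Folded with RNAfold, the hairpin had a predicted minimum free energy of -35.6 kcal/mol, and 19 of its 25 predicted base pairs joined the arms. Each arm had 2 predicted unpaired bases, and 6 of the 7 seed bases of the 5p arm were paired. The deposited values are 1 count per gene, so reads of the 5p and the 3p arm are summed in every value of Mir139.

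No other mature miRNA among the 1738 in the RefSeq table has the seed of either arm, so Mir139 stands there without a seed family. For the 5p arm, bases 2 to 7 were also found in no other entry. For the 3p arm, bases 2 to 7 were found in 1 other entry, which is shown with those bases in capitals, and whose gene Mir6397 had 0 counts in both hearts.
miR-6397: uGGAGACuuucaguggaguga

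The longest run of the Mir139 hairpin found on either strand of any of the 2201 other listed hairpins was 11 bases, in Mir6352. A gene whose hairpin shares a run of 20 bases with that of a miRNA gene elsewhere can lose reads to the tally of reads with several placements, and Mir139 shared no such run. Copies outside annotated miRNA genes were not searched for.

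Pde2a spans chromosome 7 from 101421691 to 101512827 on the plus strand of mm10, and Mir139 was the only listed miRNA gene inside it. The hairpin starts 53685 bases after the first annotated start of Pde2a, at 58.9% of the gene's 91137 bases. Of the 12 annotated Pde2a transcripts 10 contain the hairpin, 4 of them protein coding, and in all 10 it lies wholly in an intron and overlaps no exon. In the 4 protein-coding transcripts this is intron 2, from 101451469 to 101481370, which is 29902 bases long. The hairpin lies 23907 bases after the upstream exon and 5927 bases before the downstream exon. In the other types of transcript it lies in intron 1, 2 or 3, and the downstream exon is at the same distance. The annotation also lists Gm45837, a readthrough gene that covers the same interval on the same strand. Pde2a mRNA was not analysed here.

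Mir139 was among the most abundant miRNA genes in both hearts. Replicate 1 had 177547 Mir139 counts of 4930853 assigned to a miRNA gene, and replicate 2 had 235040 of 5229819. Scaled to a library total of 1000000 assigned counts (CPM), replicate 1 stood at 36007 CPM and replicate 2 at 44942 CPM, with a mean of 40475 ± 6318 CPM (SD, n = 2). Mir139 thus made up 3.60% of the assigned counts of replicate 1, with a 95% interval by the exact Clopper-Pearson method of 3.58 to 3.62%. In replicate 2 its share was 4.49%, with an interval of 4.48 to 4.51%. These intervals cover counting error only, and they are far narrower than the gap between the hearts. The SD was 15.6% of the mean.

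Of all 2202 listed genes, Mir139 ranked 11 in replicate 1 and 7 in replicate 2, and 9 by mean level. The genes down to and including Mir139 held 71.0% of assigned counts in replicate 1 and 55.6% in replicate 2. Its mean level was 672 times the median of 60.3 CPM over the 356 genes detected with at least 10 counts in both hearts. Against all reads of the file, including those not assigned to a gene, Mir139 held 1.34% in replicate 1 (exact 95% interval 1.34 to 1.35%) and 1.64% in replicate 2 (1.63 to 1.64%). Reads placed at several loci were 31.0 times the Mir139 counts in replicate 1 and 22.9 times in replicate 2. They belong to no gene's count, and the ranks hold only for reads assigned to a gene.

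All Mir139 counts lay on the strand of the gene. The opposite-strand column held 0 counts in both hearts, which allows up to 0.00169% of the Mir139 counts in replicate 1 and 0.00128% in replicate 2. The unstranded column gave the same counts as the stranded one, 177547 and 235040.

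The genes next to Mir139 by mean level were, from above, Mir126a, Mirlet7b, Mir23b, Mirlet7d and Mir23a, and, below it, Mir99a, Mir143, Mir26b, Mir30d and Mir22. Mir126a is a miRNA of endothelial cells, Mirlet7b and Mirlet7d belong to the let-7 family of differentiated tissues, and Mir143 is known from smooth muscle. For 5 of the 10, Mir23b, Mirlet7d, Mir23a, Mir99a and Mir26b, the values of the 2 hearts overlapped the Mir139 range of 36007 to 44942 CPM. Of these, Mir23b, Mir23a, Mir99a and Mir26b were at or above Mir139 in replicate 1 and below it in replicate 2, so their order against Mir139 changed from heart to heart. Mir23a and Mir23b share 20 bases with each other, and reads that could be placed at both are missing from their counts.

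Mir99a was at 43914 CPM in the first heart and 33960 CPM in the second, a mean of 38937 ± 7038 CPM. It stood at 1.22 times Mir139 in replicate 1 (exact 95% interval 1.21 to 1.23) and 0.756 times in replicate 2 (0.751 to 0.760), so its values lie on both sides of those of Mir139. Mir26b had 177789 counts in replicate 1, 1.00 times Mir139 (0.995 to 1.01), a difference within counting error. In replicate 2 it had 99842 counts, 0.425 times Mir139 (0.422 to 0.428). Mirlet7d was above Mir139 in both hearts, by 1.22 times (1.21 to 1.23) and 1.13 times (1.12 to 1.13), although its lower value, 43912 CPM, lies inside the range of Mir139.

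The other 5 did not overlap. Mir126a, at 56392 and 69422 CPM in replicates 1 and 2, and Mirlet7b, at 53944 and 61411 CPM, were above Mir139 in both hearts. Mir143, at 28767 and 34638 CPM, Mir30d, at 14634 and 19971 CPM, and Mir22, at 8553 and 20552 CPM, were below it in both. In both hearts Mir139 was thus below Mir126a, Mirlet7b and Mirlet7d and above Mir143, Mir30d and Mir22, while its order against Mir23b, Mir23a, Mir99a and Mir26b was not the same in the 2 hearts. Small-RNA libraries also capture some miRNAs better than others through ligation, so an order of genes is an order of reads.

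**Figure D1:**
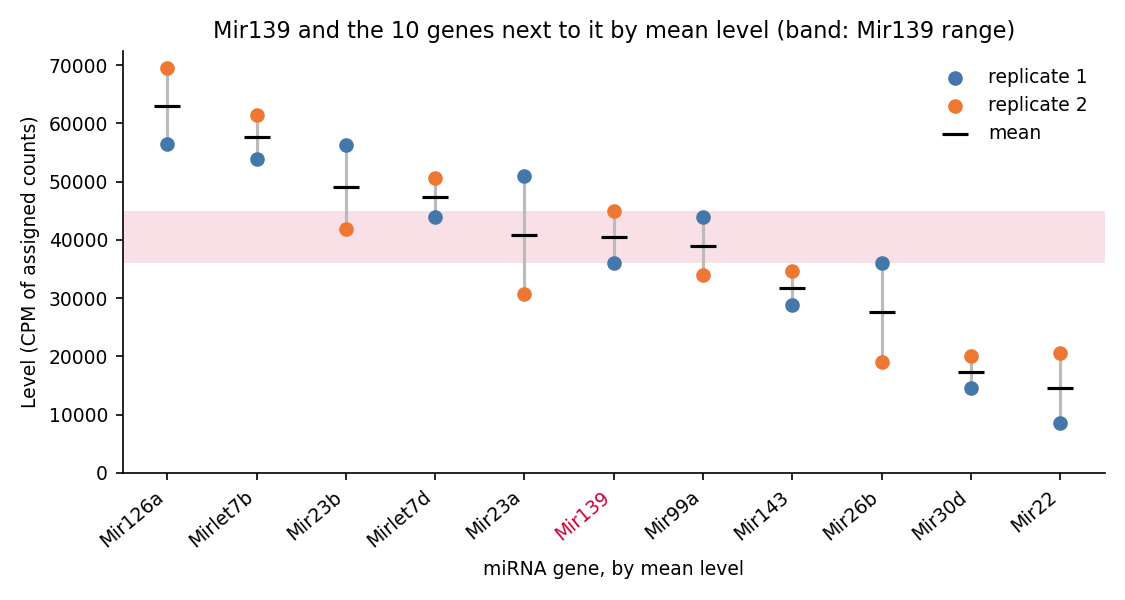
Levels of Mir139 and of the 5 genes above and 5 below it by mean level, in CPM of assigned counts on the y axis, with 1 point per heart and a black bar for the mean of 2. The red band is the range of Mir139, 36007 to 44942 CPM, and 5 of the 10 genes have values or a span reaching into it.

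By the distance between log2 CPM values over the 2 hearts, the genes most like Mir139 were Mirlet7d at 0.33, Mir99a at 0.50, Mir143 at 0.50, Mir23b at 0.65 and Mirlet7b at 0.74. With only 2 libraries this measure is mainly one of level. A mature arm each of let-7d, Mir99a and Mir126a is shown, with seeds in capitals, which differ from that of miR-139-5p. Mirlet7d and Mir99a are among these 5 genes. Mir126a is not, but it is among the 5 ranked directly above Mir139. The counts of these genes do not separate the arms.
miR-139-5p: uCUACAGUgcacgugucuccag
let-7d-5p: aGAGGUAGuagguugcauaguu
miR-99a-5p: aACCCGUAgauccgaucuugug
miR-126a-3p: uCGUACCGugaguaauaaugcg

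Between the hearts, Mir139 was 1.25-fold higher in replicate 2 (exact 95% interval 1.24 to 1.26), a log2 ratio of 0.32. By the two-sided exact binomial test against the libraries' shares of assigned counts, with Benjamini-Hochberg adjustment, the difference exceeded counting error, with a p-value too small for the software to represent. That test sets 2 libraries against each other and covers counting error only. Among the 356 detected genes, 63.5% were called in either direction and 32.9% were called higher in replicate 2, and all 20 of the most abundant genes were called, so a call at this depth does not set Mir139 apart. The absolute log2 ratio of Mir139 was larger than that of 140 detected genes (39.3%) and lay below the median of 0.45. Among the 20 most abundant genes 9 had a smaller and 10 a larger one, with a median of 0.35. In these terms Mir139 was in the middle of the abundant genes in how much it varied from heart to heart.

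**Figure D2:**
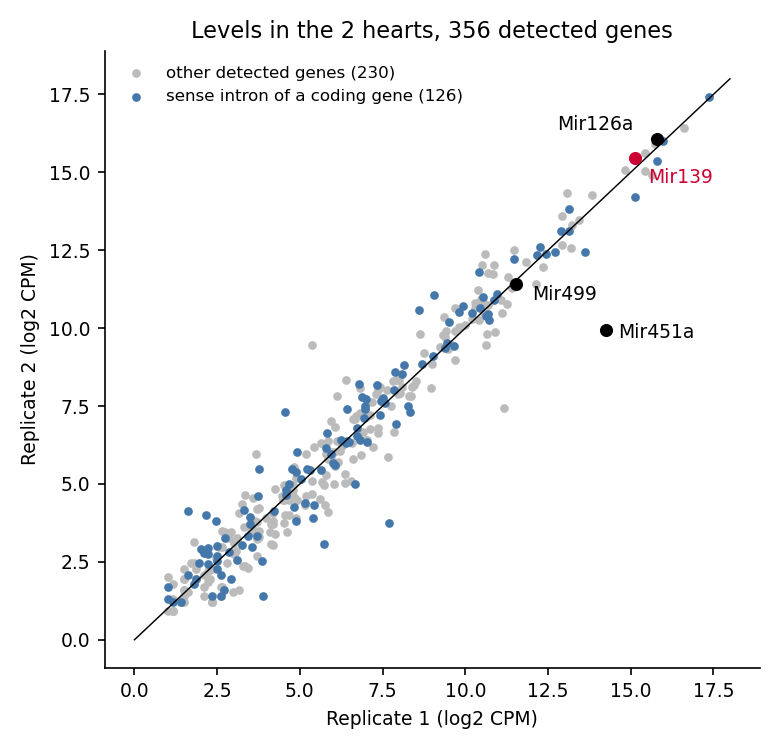
Levels of the 356 detected genes in replicate 1 (x axis) and replicate 2 (y axis), both in log2 CPM, with the line of equal level. Mir139, in red, lies near the upper end just above the line, at a log2 ratio of 0.32, close to Mir126a at 0.30, while Mir451a lies far below the line.

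Intron-hosted miRNA genes as a class were detected about as often as all miRNA genes. By the annotation, 733 listed genes lie in an intron of a coding gene on its strand, and 126 of them (17.2%) were detected, against 356 of 2202 (16.2%) over all genes. The intron-hosted genes held 45.4% of assigned counts in replicate 1 and 45.0% in replicate 2, and Mir139 alone supplied 7.93% and 9.99% of those counts. Within the class Mir139 ranked 4 by mean level, 5 in replicate 1 and 3 in replicate 2. The genes above it by mean were Mir378a in Ppargc1b, Mirlet7g in Wdr82 and Mir23b in 2010111I01Rik, and Mir26b in Ctdsp1, a phosphatase gene, followed it. Mir378a was at 169097 and 175614 CPM and Mirlet7g at 64250 and 66126 CPM in replicates 1 and 2, above Mir139 in both hearts. Of the detected genes in the class 48 were called higher in replicate 2, 31 lower and 47 were not called, with a median log2 ratio of 0.12, beside 117, 109 and 130 and a median of 0.02 over all detected genes.

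A list of 38 miRNA genes commonly given as lying within a coding host, 33 of them intron-hosted by the annotation, had 36 detected members. Of these, 18 were called higher in replicate 2, 11 lower and 7 were not called. Over all detected genes, 32.9% were called higher and 30.6% lower. The median log2 ratio of the list was 0.22, beside 0.02 over all detected genes. Only Mir378a and Mir126a of this list were above Mir139 by mean level. The next were Mir26b, Mir149 in Gpc1 and Mir93 in Mcm7. Mir149 was called higher in replicate 2, at a log2 ratio of 0.68, and Mir26b and Mir93 were called lower, at -0.92 and -0.62, so abundant hosted genes moved in both directions between the hearts. Of the list 13 members share 20 bases with another miRNA gene, and reads that could belong to both copies are missing from their counts.

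Among miRNA genes inside phosphodiesterase genes, Mir139 was the only abundant one, which restates the high count it was chosen for. The annotation places 5 listed miRNA genes on the strand of a phosphodiesterase gene. Of these, 2 were detected, Mir139 and Mir582, beside 356 of 2202 (16.2%) over all genes. Mir582, in an intron of Pde4d, which encodes a cAMP-specific phosphodiesterase, had 33 counts in replicate 1 and 50 in replicate 2, or 6.69 and 9.56 CPM. Mir7672, overlapping an exon of Pde12, had 2 and 6 counts. Mir1904 in Pde4d and Gm44413 in Pde1c had 0 counts in both hearts, and this group was drawn from the annotation after values were seen.

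On its chromosome Mir139 held most of the counts, which restates the high count it was chosen for. Chromosome 7 has 153 listed miRNA genes, of which 19 were detected, beside 356 of 2202 (16.2%) over all genes. Mir139 held 90.3% of the chromosome's counts in replicate 1 and 91.2% in replicate 2. The next gene there, Mir150, a lymphocyte miRNA, was at 1416 and 1968 CPM, and the mean of Mir139 was 23.9 times that of Mir150. The nearest listed miRNA gene before Mir139 is Mir3102, on the other strand and 592966 bases away, with 711 counts in replicate 1 and 1026 in replicate 2. The nearest after it is Gm22655, 405740 bases away, with 0 counts in both. The annotation lists no other miRNA gene within 100 kb, so none could be detected there, and Pde2a holds no other listed hairpin to compare.

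Whole heart holds muscle cells, endothelial cells, smooth muscle, fibroblasts, leukocytes and red cells, and the levels of Mir139 were set beside markers of each. The calls of each list below are read beside those over the 356 detected genes, of which 32.9% were called higher in replicate 2 and 30.6% lower, with a median log2 ratio of 0.02. The lists have 2 to 6 detected members each, too few to set a list apart from that background by its count. In bulk tissue, fewer cells of a type and less RNA per cell cannot be told apart. The defining heart muscle genes Mir499, in the myosin gene Myh7b, and Mir208a, in Myh6, were present, at 2933 and 2758 CPM and at 1361 and 3562 CPM in replicates 1 and 2. Mir139 counts were 12.3 times those of Mir499 in replicate 1 (exact 95% interval 12.1 to 12.5) and 16.3 times in replicate 2 (16.0 to 16.6). Against Mir208a they were 26.4 times (25.8 to 27.1) and 12.6 times (12.4 to 12.8). Against Mir208b, in Myh7, they were 189 times (177 to 201) and 234 times (220 to 249). Mir139 thus rose relative to Mir499 and Mir208b and fell relative to Mir208a. The 8 heart muscle markers summed to 4533 and 6558 CPM in replicates 1 and 2, and the difference of Mir208a alone was larger than that of the sum. Of the 5 detected members Mir208a was called higher in replicate 2 and Mir499 lower, 3 were not called, and the median log2 ratio was -0.09. The Mir1a and Mir133 members, 5 in all, share 20 bases with another gene. Reads that could be placed at several of these genes are missing from their counts and from the sum of the list.

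Among endothelial markers, Mir139 kept nearly the same ratio to Mir126a, which lies in Egfl7. Mir139 counts were 0.639 times those of Mir126a in replicate 1 (exact 95% interval 0.635 to 0.642) and 0.647 times in replicate 2 (0.644 to 0.651), values that differ by slightly more than counting error. The log2 ratio of Mir126a between the hearts was 0.30, beside 0.32 for Mir139. In all, 15 other detected genes lay within 0.05 of the log2 ratio of Mir139. The other detected endothelial markers had other ratios, from -0.85 for Mir10a to 1.69 for Mir222. The 6 endothelial markers summed to 59934 and 73470 CPM, 5 were detected, 4 were called higher in replicate 2 and 1 lower, beside 32.9% and 30.6% of all detected genes, and with TMM or DESeq2 scaling 3 were called higher. The list's median log2 ratio of 0.30 is the value of Mir126a itself.

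Smooth muscle Mir143 was also close, with Mir139 at 1.25 times its counts in replicate 1 (exact 95% interval 1.24 to 1.26) and 1.30 times in replicate 2 (1.29 to 1.31). Of the smooth muscle and fibroblast list, 5 of 6 genes were detected and 4 were called higher in replicate 2, beside 32.9% of all detected genes, with a median log2 ratio of 0.52 beside 0.02. Among them were Mir21a at 1.79 and Mir214 at 1.16. The list summed to 33441 and 45971 CPM in replicates 1 and 2, and Mir199a-1 was at 0 counts in both. All 6 leukocyte genes were detected, led by Mir155, Mir150 and Mir342, with sums of 6415 and 8108 CPM. Of these, 4 were called higher in replicate 2 and 1 lower, Mir142 at -0.89, beside 32.9% and 30.6% of all detected genes, and with TMM scaling 2 were called lower.

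Both genes of the red cell list and 3 of the 5 detected brain genes were called lower in replicate 2, beside 30.6% of all detected genes. Mir451a and Mir144, both abundant in red cells, summed to 21812 CPM in the first heart but 1161 CPM in the second. Without these 2 genes in the library totals, the log2 ratio of Mir139 was 0.29. Mir486 in Ank1, also linked to red cells but held only in the list of hosted genes, was called higher in replicate 2. It was at 731 and 1173 CPM in replicates 1 and 2, a log2 ratio of 0.68. Pde2a is also known for its expression in brain, and the 11 brain genes summed to 593 CPM in replicate 1 and to 269 CPM in replicate 2. Mir128-1, Mir137 and Mir128-2 led this list, all 3 called lower in replicate 2. Mir219a-2 was called higher, at a log2 ratio of 0.97, and Mir219a-1, at 0.30, was not called. Mir124a-1, Mir124a-2, Mir124a-3 and Mir9-2 were at 0 counts in both hearts. Of the 11 brain genes, 10 share 20 bases with another gene. The part that any of these cell types has in the level of Mir139 was not tested.

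**Figure D3:**
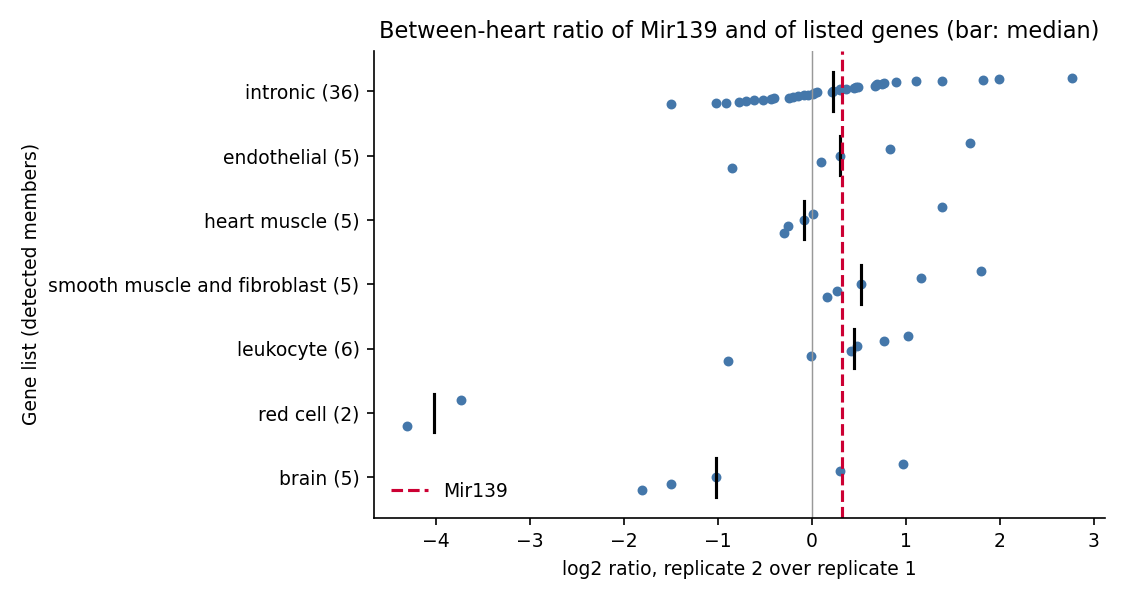
The log2 ratio of replicate 2 over replicate 1 (x axis) for the detected members of each gene list (y axis), with 1 point per gene and a black bar at each list's median. The dashed red line is Mir139 at 0.32. The list labelled intronic is that of 38 genes commonly given as lying within a coding host, 33 of them intron-hosted by the annotation. The list medians are 0.22 (intronic), 0.30 (endothelial), -0.09 (heart muscle), 0.52 (smooth muscle and fibroblast), 0.45 (leukocyte), -4.02 (red cell) and -1.02 (brain), and members of the intronic, endothelial, heart muscle, leukocyte and brain lists lie on both sides of 0.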

How the data were processed

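Read counts per miRNA gene were deposited for each library as whole numbers, unstranded and for each strand. The authors' accompanying text names mm10 and GENCODE M21; no source used here gives the aligner or the counter. mm10 is the C57BL/6J genome, so CAST reads were aligned to another strain's sequence. The counts on the strand of the gene were used. The 4 entries that name no gene (unmapped, several loci, no feature, ambiguous) were left out of totals and tests; assigned reads were 37.3% of 13210462 in replicate 1 and 36.4% of 14363882 in replicate 2.

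Counts were scaled to CPM, and log2 values used a pseudocount of 0.5 counts. Detected genes are those reaching 10 counts in each library. Since 1 group leaves no contrast for a quasi-likelihood test, each of the 356 detected genes was compared between libraries by an exact binomial test (SciPy 1.17.1), two-sided, with Benjamini-Hochberg adjustment at 0.05; the script was tested on simulated counts. TMM factors came from edgeR 4.0.16 and size factors from DESeq2 1.42.0. The hairpin was folded with RNAfold 2.7.2.

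All 2202 identifiers were found in GENCODE M21. A gene was counted as intron-hosted when a coding gene on its strand contained it and no exon of a containing gene overlapped it. Mir142 and Mir146 were matched to the leukocyte list through synonyms.

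The text names Mir139, the 5 genes above and 5 below it by mean CPM, the 5 nearest in log2 CPM, its neighbours on the chromosome, genes sharing seed bases, and the leading members of each list. Others, such as those in phosphodiesterase genes, Mirlet7g, Mir208a as a single comparison, Mir142, Mir486, Mir219a-1 and Mir219a-2, were named after their values were seen. Mir139 and the lists were chosen with earlier results of these data known. Intervals cover counting error only, as the sources mention no molecular identifiers.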

Additional observations from a re-analysis of the deposited data

How the results depend on the processing

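The CPM level of Mir139 depends on which reads make up the total. The mean was 55736 CPM with the unstranded counts, 57085 with genes sharing 20 bases left out, 48926 with Mir378a left out of the total, 19594 with reads placed at several loci added to the total, and 14902 with all reads as the total, against 40475 as reported. The changes follow from the size of each total. With either heart left out the mean ranged from 36007 to 44942 CPM and the rank from 7 to 11. The rank was 6 without the sharing genes, of which Mir378a, Mir23b and Mir23a stand above Mir139, and 7 and 8 with the unstranded counts and without Mir378a.

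Mir139 stayed higher in replicate 2 and past the threshold under all 10 alternatives run, with log2 ratios from 0.27 to 0.38. Of these, 1 (red cell genes left out) was added after seeing the data. Running without a count filter or with a minimum of 100 counts leaves the Mir139 counts and the totals unchanged. Those settings could not alter its ratio of 0.32. The number of genes called was 226 of 356 tested. Over 7 alternatives it ranged from 167 of 278 without the sharing genes to 242 of 754 without a count filter. With a minimum of 100 counts it was 180 of 222, so the share of genes called changed with the filter. No paired analysis was possible because the series has 1 group. With 2 libraries there is no test of a difference between animals, and whether the hearts or the library preparations differ cannot be told apart.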
